A study of Danio rerio with 8 samples.

Results

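The transcripts of nanog, pou5f1, sox19b and lin28a, which encode regulators that zebrafish eggs supply to the embryo, were followed in whole embryos at the dome stage with and without SU5402. The members were chosen by gene symbol from 5 names, of which 4 matched a locus each among the 33843 loci of the authors' deposited table. All 4 were among the 12757 loci the authors had tested. The name lin28b matched no row and lin28b was not analysed here. In the reference table of current names, pou5f1 is now called pou5f3 and the locus listed as lin28a is now called lin28ab, so lin28ab could not stand in for lin28b.

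RNA-seq had been done on 2 control and 2 SU5402 samples, and the ATAC-seq libraries of the series, 4 samples, were not used here. The treated embryos had received 20 µM SU5402, dissolved in DMSO, from the stage of 2 cells, and the control embryos an equal volume of DMSO. SU5402 blocks the kinase of FGF receptors and is known to inhibit VEGF receptors as well. The labels name no strain, no genotype and no number of embryos per sample, and do not say whether replicates came from separate clutches.

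Nanog, a homeodomain protein, Pou5f3, a POU protein related to mammalian Oct4, and the SoxB1 protein Sox19b are DNA-binding factors. In zebrafish they bind enhancers before the zygotic genome is switched on and are needed for the first wave of zygotic transcription. Lin28 proteins bind RNA and, in mammals and worms, block the maturation of the microRNA let-7. At dome stage a whole-embryo transcript level sums what remains of the maternal supply and what the embryo has newly made, and the table does not separate these sources.

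Transcript levels of the 4 genes, as deposited, were within 13% of control in SU5402 embryos, and 0 of the 4 were called different in the authors' deposited table. When both conditions were scaled to the same FPKM sum, the difference of pou5f1 was -18.9% in place of -12.2%. Expressed as FPKM (fragments scaled to transcript length and library size), nanog was the most abundant and sox19b the least abundant of the 4 in both conditions. The authors called a locus different at a Cuffdiff q of at most 0.05, and 5.64% of all tested loci were called. By direction, 3.58% of tested loci were called higher and 2.06% lower, so that a count of 0 among 4 genes is near the background. At an unadjusted p of at most 0.05 the count was also 0 of 4, against 11.1% of all tested loci. It was 0 of 4 as well with the p adjusted by Benjamini-Hochberg over the whole table (1.65% of tested loci) and over the loci that reached 1 FPKM in each condition (1.43%). Each FPKM is the authors' single value for both replicates of a condition, so no replicate error can be given, and the p and q values are those of the authors' test.

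In the authors' deposited table nanog had 1106 FPKM in control and 1178 FPKM in SU5402 embryos. This level was rank 19 of the 12757 tested loci in control and rank 22 in SU5402. The log2 change was 0.09 (p = 0.584, q = 0.728 in the authors' deposited table, from Cuffdiff). It corresponds to a difference of 6.48%, and 18.3% of tested loci had a smaller absolute log2 change. The genes with the most similar pair of FPKM values were the chaperone gene hspa8, the RNA-binding protein gene khdrbs1a and the cytoplasmic actin gene actb2. Likeness was measured as the Euclidean distance of log2 FPKM over the 2 conditions, and was 0.11 for hspa8, 0.22 for khdrbs1a and 0.22 for actb2. With only 2 values per gene, this measure says that the genes had similar levels.

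In the authors' deposited table pou5f1 had 461 FPKM in control and 405 FPKM in SU5402 embryos, rank 82 and rank 114 among tested loci. Its log2 change of -0.19 was the largest of the 4 in absolute size (p = 0.245, q = 0.405 in the authors' deposited table, from Cuffdiff), and it was not called. This was a change of -12.2%, and 36.4% of tested loci had a smaller absolute log2 change. The nearest genes by the same distance were the glutamine synthetase gene glulb (463 and 403 FPKM, distance 0.0072), the replication licensing gene cdc6 (469 and 411 FPKM, distance 0.033) and the antizyme gene oaz1a (435 and 386 FPKM, distance 0.11). None of these 3 was called, but the distance uses the FPKM of both conditions. Similar changes therefore follow from the choice of these genes, and their lack of a call is no separate result.

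The level of sox19b was 55.1 FPKM in control and 56.6 FPKM in SU5402 embryos in the authors' deposited table, rank 1675 and 1774 of the tested loci. Its log2 change was 0.04 (p = 0.833, q = 0.904 in the authors' deposited table, from Cuffdiff). Of the tested loci, 8.22% had a smaller absolute change.

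For lin28a the authors' deposited table gave 71.9 FPKM in control and 75.2 FPKM in SU5402 embryos, rank 1235 and 1280. The log2 change was 0.06 (p = 0.850, q = 0.914 in the authors' deposited table, from Cuffdiff). A smaller absolute change was seen at 12.9% of the tested loci.

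The order of the levels was nanog, pou5f1, lin28a, sox19b in both conditions. The FPKM of nanog was 2.40 times that of pou5f1 in control and 2.91 times in SU5402 embryos, and that of pou5f1 was 6.40 and 5.38 times that of lin28a. Relative to sox19b, the FPKM of nanog was 20.1 times as high in control and 20.8 times as high in SU5402, and that of pou5f1 8.37 and 7.14 times as high. The FPKM of lin28a was 1.31 and 1.33 times that of sox19b. Without replicate values it cannot be said which neighbours in the order, such as lin28a and sox19b, differ beyond their spread.

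**Figure D1:**
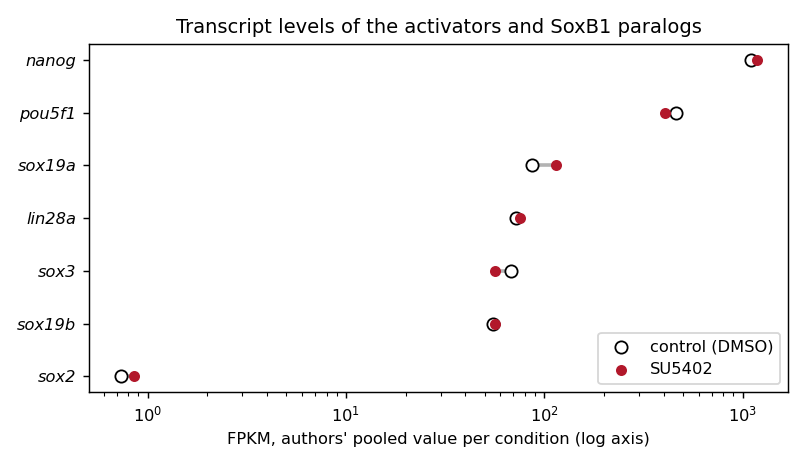
FPKM of the members and of 3 SoxB1 paralogs (log axis), with an open circle for control and a filled circle for SU5402. Each is the authors' pooled value. The circles of nanog (1106 and 1178 FPKM) and sox19b (55.1 and 56.6 FPKM) nearly coincide, and those of sox19a and sox3 lie further apart.

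The changes of the 4 genes were set beside those of other loci at these levels. Among the 1861 tested loci at 50 FPKM or more in control, a floor chosen after the members' values were seen, 11.0% were called, and the smallest called absolute log2 change was 0.43, a 1.35-fold difference at fam46ba. The largest member change, that of pou5f1, was less than this. Over all tested loci the smallest called absolute log2 change was the same 0.43, so it is not particular to these levels. At 400 FPKM or more in control it was 0.48. Among the 99 tested loci at 400 FPKM or more in control, which include nanog and pou5f1, 13.1% were called, and the median absolute log2 change was 0.24. Over all tested loci the median log2 change was 0.04, with the 10th percentile at -0.52 and the 90th at 0.65.

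**Figure D2:**
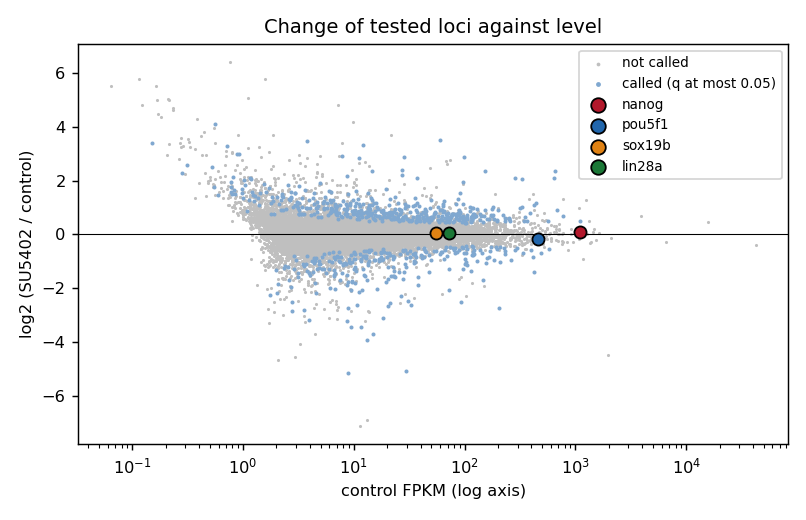
Log2 change from control to SU5402 against control FPKM (log axis) for the tested loci with a finite change, in blue where the authors' q was at most 0.05 and grey otherwise, with the 4 members as large circles. The members lie inside the grey band, with log2 changes from -0.19 to 0.09.

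The deposited changes of nanog, lin28a and sox19b were of the size of the shifts between scalings of the conditions. That of pou5f1, at -0.19, was larger in size than these shifts. Subtracting the median change, which was 0.04 over the 13788 loci that reached 1 FPKM in each condition, left nanog at 0.05, lin28a at 0.03, sox19b at 0.0030 and pou5f1 at -0.22 on the log2 scale. Scaling both conditions to the same sum of FPKM, an alternative added after the data were seen, shifted every log2 change by -0.11. The sum was 477306 FPKM in control and 516668 FPKM in SU5402. The loci whose FPKM differed most between the conditions moved in both directions. The largest difference was a fall, at a locus of the mitochondrial genome (42772 FPKM in control, 32825.5 in SU5402). Another mitochondrial locus, mt-nd1 with mt-nd2, was higher (15794 and 21828 FPKM). Also higher were setb (648 FPKM in control, 3287 in SU5402) and tbx16. In the order named, the differences (SU5402 minus control) were -9947, 6034, 2639 and 2046 FPKM. Each was smaller in size than the rise of the sum, and the fall partly cancels the rises. Under this uniform shift nanog was at -0.024, lin28a at -0.051 and sox19b at -0.074, all below 0, and pou5f1 at -0.30. The shift is the same for every locus and exceeds the deposited changes of nanog, lin28a and sox19b, so their crossing of 0 follows from its size. No direction is given for these 3 genes, nor for pou5f1, which was not called.

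**Figure D3:**
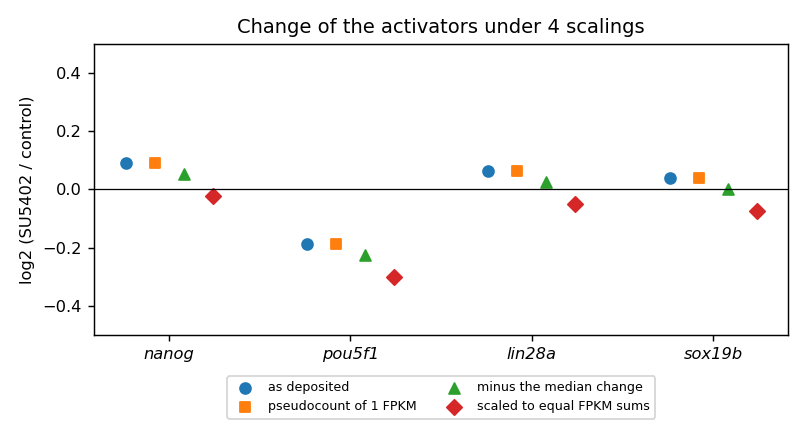
Log2 change from control to SU5402 of each member as deposited, with a pseudocount of 1 FPKM, after subtracting the median change and after scaling to equal FPKM sums, 1 marker each. Equal sums move each gene down by the same 0.11 on the log2 scale, which takes nanog, lin28a and sox19b from above to below 0.

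On the Zv9 assembly, pou5f1 lay at chromosome 21 from 11887950 to 11892809 and sox19b at chromosome 7 from 27620451 to 27623815, each the only row of its assembled locus. The locus of nanog, at chromosome 24 from 12655969 to 12743819, spanned 87.9 kb and held 2 further rows. These were ipo4, an importin gene that also neighbours nanog in the current RefSeq gene order, at 26.6 FPKM in control and 25.7 FPKM in SU5402, and an unnamed row at 42.3 and 76.2 FPKM. Neither was called in the authors' deposited table (q = 0.976 and 0.654), and both were far below nanog in FPKM. The locus of lin28a, at chromosome 19 from 14873036 to 14904650, held an unnamed row at 6.29 FPKM in control and 3.62 FPKM in SU5402, also not called (q = 0.781 in the authors' deposited table). Reads may be split between rows that share a locus. The files give no exon or strand for these loci.

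Sox19b shares its HMG-box family and much of its early function with other SoxB1 proteins. At dome stage sox19a had 87.2 FPKM in control and 115 FPKM in SU5402 embryos, and sox3 had 68.2 and 56.5 FPKM; neither was called in the authors' deposited table (q = 0.316 and 0.300). The gene sox2 was under 1 FPKM in both conditions, sox1b was listed at 0 in both and sox1a at 0 in control, and none of these 3 was tested. Thus sox19b made up 26.1% of the summed SoxB1 FPKM in control and 24.7% in SU5402, against 41.3% and 50.2% for sox19a. The SoxB1 sum was 211 FPKM in control and 229 FPKM in SU5402. In control sox3 stood above sox19b, and in SU5402 embryos the pair was at 56.5 and 56.6 FPKM.

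No other POU gene reached the FPKM of pou5f1. Of 14 other POU loci matched, 3 were tested, and 0 were called in the authors' deposited table, by the adjustment over the whole table or at an unadjusted p of at most 0.05. The shares of all tested loci were 5.64%, 1.65% and 11.1% in that order, so a count of 0 in 3 is near the background. The octamer-binding factor gene pou2f1b had 30.4 FPKM in control and 52.7 FPKM in SU5402 (q = 0.200 in the authors' deposited table), and the other tested loci, pou2f2a and pou6f1, were under 4 FPKM.

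Of 20 tested loci of the Lin28 and let-7 list, 0 were called in the authors' deposited table or by the adjustment over the whole table, while 1 passed an unadjusted p of at most 0.05. With 5.64% of all tested loci called, a count of 0 in 20 is near the background. The median log2 change was 0.08, or -0.03 with equal FPKM sums, against 0.04 over all tested loci as deposited. In mammals the uridylyl transferase encoded by zcchc11 tails the let-7 precursors that Lin28 holds, and the exonuclease encoded by dis3l2 degrades them. The gene zcchc11 was at 86.2 FPKM in control and 109 FPKM in SU5402, and DIS3L2 at 75.2 and 76.7 FPKM. The let-7 target gene trim71, at 70.2 and 72.7 FPKM, was close to lin28a in level; these examples were chosen after their values were seen. The list's highest control levels were those of hmga1a (1447 FPKM in control, 1555 in SU5402), which encodes a chromatin protein, of ybx1 (426 and 567 FPKM), which encodes an RNA-binding protein, and of syncrip (303 and 407 FPKM).

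Among other genes of the vertebrate pluripotency network, 24 loci were tested. Of these, 12.5% were called in the authors' deposited table, against 5.64% of all tested loci. The 2 called lower in SU5402 were the Nodal co-receptor gene oep and foxh1, which encodes a Smad partner. The 1 called higher was the zinc finger gene klf2a. In FPKM, oep was at 161 in control and 87.3 in SU5402, foxh1 at 60.3 and 36.2, and klf2a at 31.8 and 45.97; the call of klf2a was lost with the adjustment over the whole table. Near pou5f1 in level, the stem cell zinc finger gene sall4 had 400.3 FPKM in control and 317 FPKM in SU5402 and was not called (q = 0.0955 in the authors' deposited table). The nuclear receptor gene nr6a1a is listed in several rows, the highest of them at 199.8 FPKM in control and 170.1 FPKM in SU5402. The median log2 change of the tested loci of this list was -0.09 as deposited, against 0.04 over all tested loci. With equal FPKM sums it was -0.20, and the median over all tested loci moved by the same shift of -0.11. The co-activator and chromatin list holds ep300 and similar partners of genome activation. It had 1 call among 18 tested loci (5.56%, against 5.64% of all tested loci), which is near the background. The call was crebbpb (13.6 to 19.0 FPKM), a histone acetyltransferase gene called higher, and was lost with the adjustment over the whole table. The median log2 change of the chromatin list was 0.18, against 0.04 over all tested loci. With equal FPKM sums it was 0.07, after the same shift of -0.11. The list's highest control levels were those of the H2A.Z genes h2afvb (385 FPKM in control, 334 in SU5402) and h2afva (359 and 365 FPKM) and of brd3a (247 and 258 FPKM).

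Another list held zygotic genes reported to need or be bound by DNA-binding activators of the zygotic genome. Of its 39 tested loci, 14 were called in the authors' deposited table, 9 lower and 5 higher in SU5402, against 5.64% of all tested loci. The difference between this count and the 0 of 4 members was not tested. The list was put together with earlier results of these data known and includes genes known to respond to FGF, so its share of calls is a description of the chosen genes. Its median log2 change was -0.27, against 0.04 over all tested loci. With equal FPKM sums it was -0.38, after the shift of -0.11 that is the same for every locus. The 5 largest called falls were those of the zinc finger gene zic2a (8.85 to 0.250 FPKM), the forkhead gene foxd5 (29.8 to 0.871 FPKM), the BMP antagonist gene chd (14.8 to 1.13 FPKM), the ERK phosphatase gene dusp6 (18.2 to 2.13 FPKM) and the zinc finger gene sp5l (2.77 to 0.389 FPKM). The fall of dusp6, a feedback gene of FGF signalling used here to check the inhibitor, was 8.53-fold (q = 0.000383 in the authors' deposited table). The 5 called higher were tbx16 (634 to 2679.9 FPKM), otx1a (2.59 to 6.47 FPKM), apoeb (328 to 661 FPKM), blf (251 to 375 FPKM) and klf2a. The adjustment over the whole table kept 6 lower and 2 higher, and of the genes just named zic2a, sp5l, otx1a, blf and klf2a did not pass.

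Of the 39 tested loci of this list, 25 were not called. The homeobox gene mxtx2, which Nanog activates in the yolk syncytial layer, was at 104 FPKM in control and 94.5 FPKM in SU5402 (q = 0.755 in the authors' deposited table). The gene asb11, reported as a direct target of Pou5f3, was at 161 and 177 FPKM, and klf4b, now called klf17, at 139.9 and 154 FPKM. The transcription factor gene nnr had 312 and 371 FPKM. For the forkhead gene foxd3 the values were 11.4 and 0.0820 FPKM, without a call (q = 0.392 in the authors' deposited table). These examples were chosen after their values were seen.

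**Figure D4:**
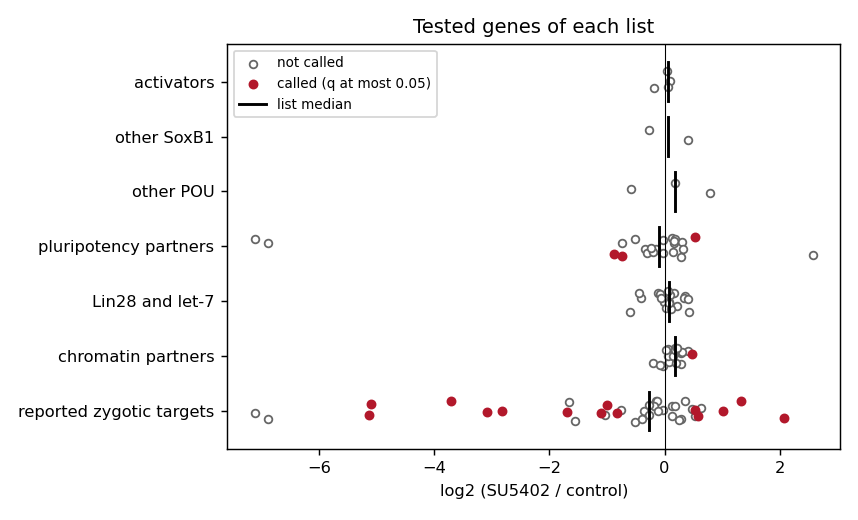
Log2 change from control to SU5402 of every tested locus in 7 gene lists, filled where the authors' q was at most 0.05 and open otherwise, with a bar at each list's median. The 4 members, in the row labelled activators, lie between -0.19 and 0.09 with no call, and 5.64% of all tested loci were called. The reported zygotic targets spread widely, with 9 called lower and 5 called higher. That list was put together with earlier results of these data known and includes genes known to respond to FGF. The difference between the lists was not tested.

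The share of cell types in the embryos was described by marker genes. Of the enveloping layer markers, 7 loci were found, with a summed level of 307 FPKM in control and 362 FPKM in SU5402. Of 6 tested loci, 2 were called (33.3%, against 5.64% of all tested loci), krt8 higher and cldne lower. Neither passed the adjustment over the whole table. Of 13 loci of yolk syncytial layer markers, 9 were tested and apoeb alone was called (11.1%, against 5.64% of all tested loci). Of the 13, 3 loci were listed at 0 in control and 1 in SU5402. The sum over the 13 loci was 490 FPKM in control and 805 FPKM in SU5402, but 162 and 144 FPKM without apoeb. The median log2 change of the 9 tested loci was -0.27. Only 4 of the 9 reached a mean of 5 FPKM over the conditions, and the median of those 4 was 0.07. Germ cell markers summed to 210 FPKM and 203 FPKM over 9 loci, all of them tested. The only call was tdrd6 (11.1%, against 5.64% of all tested loci), and it was lost with the adjustment over the whole table. A further list, of maternal transcripts put together as cleared by the microRNA miR-430, is not a list of cell type markers. Among its 19 tested loci, 3 were called higher and 3 lower by the authors (31.6%, against 5.64% of all tested loci). Those called higher were zar1, h1m and wee2, and those called lower btg4, zp2.3 and gas1a. None of them passed the adjustment over the whole table. The median log2 change of this list was -0.07, against 0.04 over all tested loci. With equal FPKM sums it was -0.19, after the shift of -0.11 that is the same for every locus. In whole embryos, fewer cells of a type and less RNA per cell cannot be told apart. The part of these differences in the levels of the 4 members was not tested.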

How the data were processed

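RNA-seq of whole zebrafish embryos was used as the table of the authors' own comparison. Per the submitters' processing notes, TopHat2, Picard, Cufflinks and Cuffdiff were used on the Zv9 (danRer7) build, with no version named. The file headers show that the authors' FPKM is 1 value per condition. That this value pools both replicates was inferred from the sample titles and the use of Cuffdiff. The deposited log2 fold change compares SU5402 with control, the deposited test score was not used, and the authors' p-value and q-value were kept unaltered. Depth per sample is unknown, and no test across replicates could be run.

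The members and lists were chosen with earlier results of these data known. Loci were matched by symbol, then by case, then by an unambiguous RefSeq synonym (GRCz12tu table, names only): of 222 listed names, 169 matched exactly, 5 by case and 21 by synonym. Benjamini-Hochberg adjusted p-values were also computed over all 12757 tested loci, the adjustment over the whole table, which was checked on simulated data. The genes named were all members, the SoxB1 paralogs and dusp6, up to 5 called genes per list and direction, up to 3 genes per list with the highest control FPKM, and the 3 loci nearest to nanog and to pou5f1. From the marker lists and the list of maternal transcripts, fewer were named. Outside this rule, zcchc11, DIS3L2, trim71, mxtx2, asb11, klf4b and foxd3 were named after their values were seen. Loci beside the members, loci with the largest FPKM differences and fam46ba were named as well. Starts were raised by 1 so that coordinates are 1-based. Python 3.11.15 with pandas 2.3.3 was used.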

Additional observations from a re-analysis of the deposited data

How the results depend on the processing

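Of the 4 members, 0 were called with the authors' q, with the adjustment over the whole table, with an adjustment over loci that reached 1 FPKM in each condition, or at an unadjusted p of at most 0.05. The adjusted p over the whole table was 0.728 for pou5f1, 0.908 for nanog, 0.975 for sox19b and 0.977 for lin28a. After subtracting the median change, every member kept its sign. A pseudocount of 1 or 0.1 FPKM cannot change a sign, because the same amount is added to both conditions. With equal FPKM sums, the log2 change reversed for nanog (-0.024), sox19b (-0.074) and lin28a (-0.051); a uniform shift of -0.11 by construction accounts for this. With the adjustment over the whole table, the calls went from 14 to 8 in the reported target list, from 1 to 0 in the chromatin list and from 6 to 0 in the list of maternal transcripts. Of all tested loci, 210 passed this adjustment, against 720 called at the authors' q. The authors' Cuffdiff q was thus the more lenient measure. For dusp6 it was 0.000383, against a Benjamini-Hochberg adjusted p of 0.00591 over the whole table. The reason for this difference was not tested. No paired analysis was possible because the table holds 1 pooled value per condition, and for the same reason leaving out a replicate was not run. Depth is unknown and the lack of replicate values limits every statement on the size of a change.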

Other observations

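Between sox19b and the next named locus on Zv9 chromosome 7, the table lists 2 unnamed loci that were not tested by the authors. The nearer, from 27627188 to 27627945 and 3373 bases from the end of sox19b, had 0.399 FPKM in control and 4.12 FPKM in SU5402 embryos. The other, from 27628711 to 27629967, had 0.140 FPKM in control and 3.16 FPKM in SU5402. Of 1512 untested loci without a gene name that had at least 0.1 FPKM in both conditions, 16 were at least 10-fold higher in SU5402, these 2 among them, and 5 at least 10-fold lower. The locus that follows them, which joins eif4a1a and senp3b, was at 457 FPKM in control and 576 FPKM in SU5402 with no call (q = 0.131 in the authors' deposited table). These loci were chosen after their values were seen.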
